A study of Homo sapiens with 24 samples.

Results

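LGR5, ASCL2, SOX9, EPHB2, AXIN2, NKD1, RNF43, LEF1, TCF7 and MYC are targets of Wnt signalling or genes of the intestinal stem cell, and their RNA was followed through 24 RNA-seq libraries of a breast and a colon cancer cell line. They were chosen by name: a row of the deposited count table belonged to the set when its gene symbol equalled one of these names. All 10 were found among the 28307 genes of the table.

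In the canonical Wnt pathway, a secreted Wnt ligand binds a Frizzled receptor with the co-receptor LRP5 or LRP6, and this stops a cytoplasmic complex of APC, AXIN and kinases from destroying β-catenin. β-catenin then enters the nucleus and switches on genes together with DNA-binding proteins of the TCF/LEF family, among them TCF7 and LEF1. Several of the genes switched on feed back on the pathway. AXIN2 rebuilds the destruction complex, NKD1 binds Dishevelled, and RNF43 removes Frizzled from the membrane. At the base of the intestinal crypt the same pathway maintains the stem cells, which are known by the R-spondin receptor LGR5 and the transcription factor ASCL2, and in most colon cancers it is switched on by loss of APC.

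SUM159 is a breast cancer line of mesenchymal character, and SW620 is a colon cancer line that carries a truncated APC. Cells of each line were kept for 30 h under nifuroxazide (NIF), a nitrofuran antibiotic, or under the solvent DMSO, and were then sorted into ALDHbr cells, with a high aldehyde dehydrogenase activity and labelled as cancer stem cells, and ALDHneg cells, labelled as non-cancer stem cells. This made 8 groups of 3 libraries: SUM159 and SW620, each as ALDHbr under DMSO, ALDHbr under NIF, ALDHneg under DMSO and ALDHneg under NIF. The sort came after the treatment, and no untreated or unsorted cells were sequenced, so every value is that of the cells found in a gate after 30 h, and each line stands for itself alone. Total counts per library ran from 30253187 to 43127948.

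The libraries followed their labels with 1 exception. Summed levels of 10 colon epithelial markers were 484 to 766 normalised counts scaled to library size (CPM, scaled by TMM over all 24 libraries) in SUM159 and 13000 to 16900 in SW620, and 10 mesenchymal markers summed to 6300 to 8350 CPM in SUM159 and 9.47 to 39.0 in SW620. ALDH1A1, an aldehyde dehydrogenase that the sort can select for, had 127 ± 25.9 CPM in SUM159 ALDHbr cells against 0.450 ± 0.0554 CPM in ALDHneg cells under DMSO (SD, n = 3), and in SW620 1397 ± 50.3 CPM against 956 ± 18.3 CPM. Replicate 3 of SUM159 ALDHbr cells under DMSO held traces of genes that SUM159 otherwise lacked: all 15 genes with a mean of at least 100 CPM in SW620 and a median of at most 1 count in SUM159 had 10 or more counts there, 623 in all, while the other 11 SUM159 libraries had 4 to 19 counts in sum. Relative to SW620 the level was 0.357% in this library and at most 0.0101% in the others. This share of the SW620 mean would be 0.480 CPM for SOX9, 0.836 for RNF43, 0.323 for TCF7 and 0.366 for AXIN2. The 15 genes were found after the values were seen, and values that rest on this library are given again without it beside the main results of the 10 genes and wherever a call changes. In these bulk samples, fewer cells that express a gene and less of its RNA per cell cannot be told apart.

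**Figure D1:**
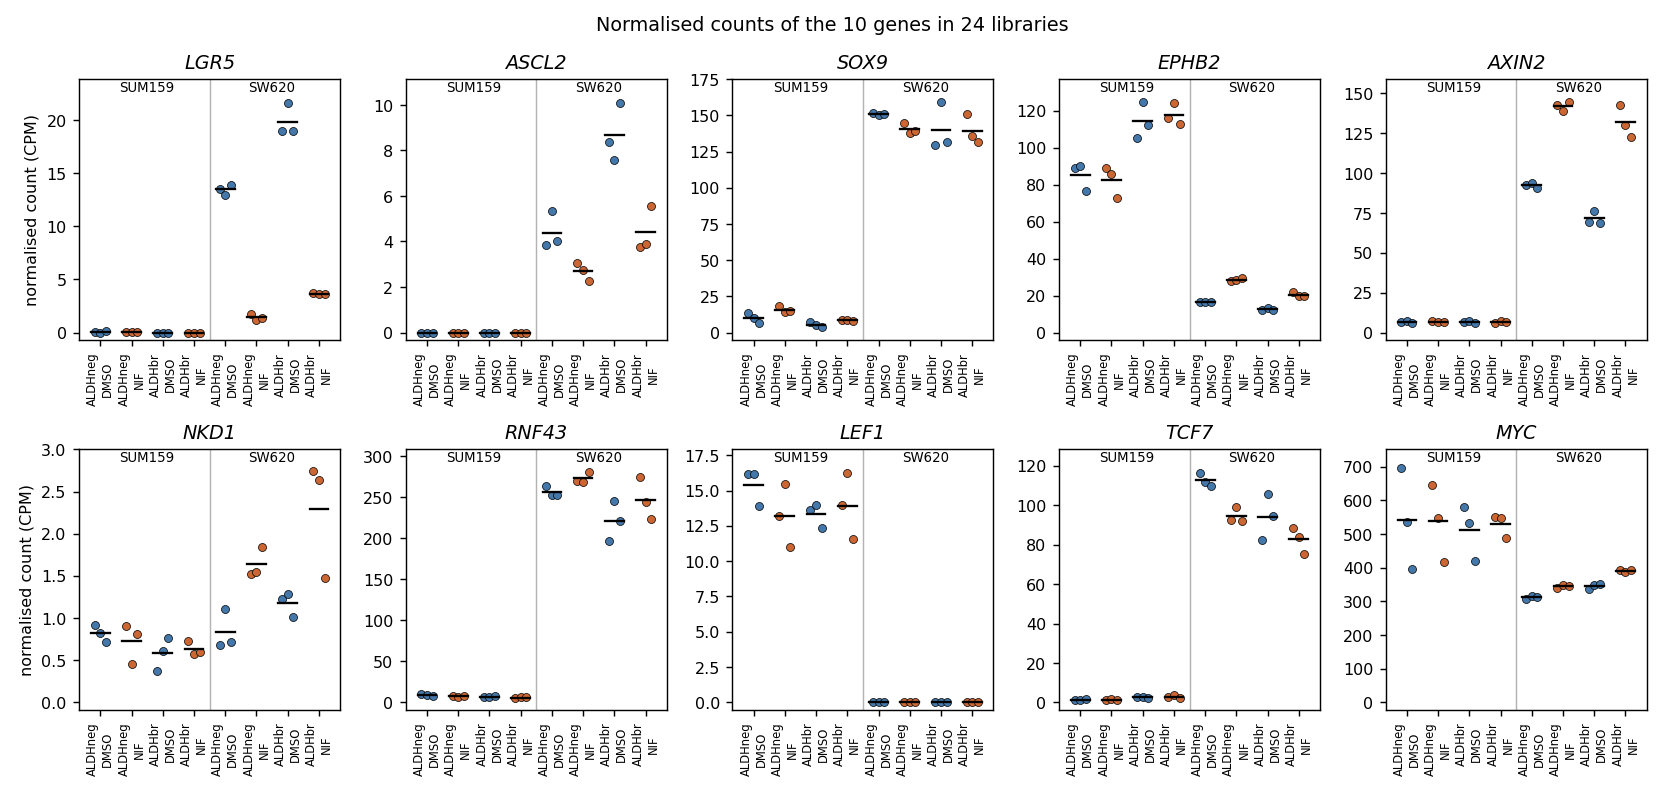
Normalised counts of the 10 genes in the 24 libraries, one panel a gene, with CPM on a linear axis from 0, a point for each library (blue DMSO, orange NIF) and a black line at the mean of each group of 3. LGR5 and ASCL2 stand at or near 0 in SUM159 and LEF1 at 0 in SW620, and in SW620 the LGR5 points under NIF lie far below those under DMSO, while those of AXIN2 and EPHB2 lie above.

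The lines were compared first, in ALDHbr cells under DMSO, to see which of the genes each line used. All 10 genes differed between the lines at an adjusted p under 0.05 (edgeR quasi-likelihood test with Benjamini-Hochberg adjustment, all 24 libraries in a single fit), 7 of them higher in SW620 and 3 lower, where 39.6% of all 16271 genes tested were called higher and 41.7% lower. The lines differ in tissue and in most of their genes, so the share of genes called is large throughout.

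Within the TCF/LEF family, the DNA-binding partners of β-catenin, the lines went opposite ways. LEF1 (chr4:108047548-108168932, RefSeq, GRCh38.p14) had 13.6, 14.0 and 12.3 CPM in the SUM159 ALDHbr libraries under DMSO and no count in any of the 12 SW620 libraries. With 3 counts taken as the floor over a group, LEF1 was at least 469-fold lower in SW620 (adjusted p = 1.04e-13). TCF7 (chr5:134108218-134148210) went the other way, with 3.01, 2.85 and 2.38 CPM in SUM159 and 82.3, 106 and 94.5 CPM in SW620 (log2 fold change 5.11 ± 0.14 (SE), adjusted p = 1.39e-20). The libraries of the lines did not overlap for either gene. TCF7L2, the family member best known from the intestinal epithelium, was also higher in SW620 (log2 fold change 1.27 ± 0.086 (SE), adjusted p = 1.60e-12).

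RefSeq gives 1 promoter window for LEF1 and 2 for TCF7 (GRCh38.p14, from 250 bases before to 50 bases after a transcription start), which are printed 5′ to 3′ on the gene's strand because these genes divide the lines. By the gene bounds given above, these windows belong to starts inside the gene. No window was found for the outermost start of LEF1 or TCF7, so their sequence there was not searched. Capitals mark a TCF/LEF motif, searched on both strands. The forms searched were the motif CTTTGAA, its variant spelled CTTTGAT, the form with another penultimate base, CTTTGTA, and the last variant, which reads CTTTGTT.
LEF1, chr4:108166252-108166551, minus strand: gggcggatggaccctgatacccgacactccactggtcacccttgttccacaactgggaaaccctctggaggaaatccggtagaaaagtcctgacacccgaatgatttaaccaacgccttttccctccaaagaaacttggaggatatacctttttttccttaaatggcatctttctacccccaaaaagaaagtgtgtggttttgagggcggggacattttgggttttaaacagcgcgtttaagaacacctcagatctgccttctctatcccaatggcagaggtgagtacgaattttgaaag
TCF7, upstream start, chr5:134115363-134115662, plus strand: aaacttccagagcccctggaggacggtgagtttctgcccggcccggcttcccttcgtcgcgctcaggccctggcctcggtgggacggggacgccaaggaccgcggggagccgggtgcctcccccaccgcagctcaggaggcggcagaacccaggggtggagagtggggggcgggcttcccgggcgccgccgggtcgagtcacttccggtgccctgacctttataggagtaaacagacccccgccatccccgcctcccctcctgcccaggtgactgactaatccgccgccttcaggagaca
TCF7, downstream start, chr5:134123368-134123667, plus strand: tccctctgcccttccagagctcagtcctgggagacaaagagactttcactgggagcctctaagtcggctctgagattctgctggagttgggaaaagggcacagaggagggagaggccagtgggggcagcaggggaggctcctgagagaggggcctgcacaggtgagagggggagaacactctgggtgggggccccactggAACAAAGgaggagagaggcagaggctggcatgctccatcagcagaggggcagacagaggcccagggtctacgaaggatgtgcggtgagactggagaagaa
The downstream TCF7 window held a single match, AACAAAG on the printed strand, whose first base lies 50 bases before the start. The LEF1 window and the upstream TCF7 window held none, nor did the 2 windows each of EPHB2 and RNF43, while 13.8% of all 35116 windows held at least 1. Windows were found for these 4 of the 10 genes, and not for LGR5, ASCL2, SOX9, AXIN2, NKD1 and MYC. G and C made up 47.0% of the LEF1 window and 69.7% and 61.0% of the TCF7 windows.

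The stem cell genes were those of the colon line. LGR5 (chr12:71439129-71586310) had 19.0, 21.7 and 19.0 CPM in SW620 ALDHbr cells under DMSO and no count in the 6 SUM159 ALDHbr libraries, a level at least 699-fold higher in SW620 (adjusted p = 3.25e-17). SUM159 ALDHneg libraries had 0 to 5 counts of it. ASCL2 (chr11:2268498-2270588) was at 0 in all 12 SUM159 libraries and had 8.38, 7.60 and 10.1 CPM in SW620, at least 305-fold more (adjusted p = 2.79e-12). Both were thus readable in SW620 alone at this depth. SOX9 (chr17:72121020-72126416), a transcription factor of stem and progenitor cells in the crypt, was higher in SW620 with 140.2 ± 16.3 CPM against 5.50 ± 1.62 CPM (log2 fold change 4.68 ± 0.17 (SE), adjusted p = 1.45e-17). EPHB2 (chr1:22710838-22921500), an ephrin receptor that keeps crypt cells in place, was the exception in this group: it was lower in SW620, with 12.6 ± 0.644 CPM against 114 ± 9.99 CPM (log2 fold change -3.18 ± 0.083 (SE), adjusted p = 1.18e-20).

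The feedback genes AXIN2, RNF43 and NKD1 were all higher in SW620. AXIN2 (chr17:65528563-65561648) had 71.5 ± 4.19 CPM in SW620 and 6.58 ± 0.629 CPM in SUM159 (log2 fold change 3.45 ± 0.090 (SE), adjusted p = 7.82e-21). RNF43 (chr17:58352500-58417534), a membrane ubiquitin ligase, differed more, with 221 ± 24.5 CPM against 6.85 ± 0.593 CPM (log2 fold change 5.01 ± 0.11 (SE), adjusted p = 3.44e-22). NKD1 (chr16:50548396-50649249) was near the lower end of what could be measured in either line, with 1.18 ± 0.144 CPM against 0.581 ± 0.192 CPM (log2 fold change 1.00 ± 0.30 (SE), adjusted p = 0.00383). Without the SUM159 library that held the traces, all 10 genes were called again between the lines, and the log2 differences were 3.37 for AXIN2, 5.07 for RNF43, 1.24 for NKD1, 4.48 for SOX9, -3.21 for EPHB2, 4.99 for TCF7 and -0.71 for MYC.

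MYC (chr8:127735434-127742951), the transcription factor of cell growth and a classic target of β-catenin, was well covered in both lines. It was lower in SW620, with 345 ± 7.26 CPM against 511 ± 83.1 CPM (log2 fold change -0.56 ± 0.14 (SE), adjusted p = 0.001). The SD of MYC over 3 libraries was 34.1 to 150.4 CPM in the SUM159 groups and 3.70 to 7.26 CPM in the SW620 groups. Each SUM159 group had its highest MYC value in replicate 1 and its lowest in replicate 3.

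NIF was then compared with DMSO in each line and population. In SW620 the stem cell genes parted: LGR5 and ASCL2 fell and EPHB2 rose. In ALDHbr cells LGR5 went from 19.0, 21.7 and 19.0 CPM under DMSO to 3.69, 3.67 and 3.66 under NIF (log2 fold change -2.44 ± 0.10 (SE), adjusted p = 3.55e-10), which is 5.42-fold lower. In ALDHneg cells it went from 13.6, 13.0 and 13.9 to 1.78, 1.19 and 1.41 (log2 fold change -3.22 ± 0.12 (SE), adjusted p = 7.20e-11), 9.30-fold lower. Every library under NIF lay below every library under DMSO, and the change exceeded the spread between replicates many times over. The values under NIF rest on 44 to 125 counts a library.

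ASCL2, which drives the stem cell programme together with Wnt signalling, had 8.38, 7.60 and 10.1 CPM in ALDHbr cells under DMSO and 3.74, 3.91 and 5.54 under NIF (log2 fold change -0.99 ± 0.17 (SE), adjusted p = 3.64e-04). In ALDHneg cells the values were 3.85, 5.33 and 4.00 under DMSO and 3.06, 2.74 and 2.25 under NIF (log2 fold change -0.72 ± 0.19 (SE), adjusted p = 0.0066). It fell in both populations without overlap between groups, by less than LGR5. SOX9 was not called: its log2 fold change was -0.0082 ± 0.073 in ALDHbr cells (95% interval -0.17 to 0.15) and -0.11 ± 0.073 in ALDHneg cells (-0.27 to 0.045). EPHB2 rose in ALDHbr cells from 12.4, 13.3 and 12.1 CPM to 21.8, 19.9 and 20.0 (log2 fold change 0.70 ± 0.064 (SE), adjusted p = 1.02e-06) and in ALDHneg cells from 16.6, 16.5 and 16.6 to 27.7, 28.1 and 29.4 (log2 fold change 0.77 ± 0.062 (SE), adjusted p = 2.33e-07).

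None of the feedback genes AXIN2, NKD1 and RNF43 fell with LGR5, while ZNRF3, the partner of RNF43, did fall and is given with the inhibitors below. AXIN2 rose in ALDHbr cells from 69.4, 76.4 and 68.9 CPM to 143, 130.1 and 123 (log2 fold change 0.88 ± 0.061 (SE), adjusted p = 6.63e-08), and in ALDHneg cells from 92.8, 94.0 and 90.7 to 143, 139 and 144 (log2 fold change 0.61 ± 0.060 (SE), adjusted p = 1.81e-06). NKD1 rose as well, from 1.23, 1.29 and 1.01 CPM to 2.74, 2.64 and 1.48 in ALDHbr cells (log2 fold change 0.96 ± 0.24 (SE), adjusted p = 0.00555) and from 0.676, 1.11 and 0.722 to 1.52, 1.55 and 1.84 in ALDHneg cells (log2 fold change 0.96 ± 0.27 (SE), adjusted p = 0.00816), on 24 to 93 counts a library. All libraries of AXIN2 and NKD1 under NIF lay above those under DMSO. RNF43 was not called, with log2 fold changes of 0.16 ± 0.079 (95% interval -0.012 to 0.33) in ALDHbr and 0.083 ± 0.079 (-0.087 to 0.25) in ALDHneg cells.

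TCF7 fell in ALDHneg cells, from 117, 112 and 109.9 CPM to 92.4, 99.2 and 91.8 (log2 fold change -0.26 ± 0.082 (SE), adjusted p = 0.0173), and this call was lost when ALDHneg replicate 1 or 3 under NIF, or 1 or 2 under DMSO, was left out (adjusted p 0.0577 to 0.0829) and with all 24 libraries in the fit (adjusted p = 0.06). In ALDHbr cells its groups overlapped and its log2 fold change was -0.19 ± 0.082 (adjusted p = 0.0811). MYC rose by a small and even step, from 337, 348 and 351 CPM to 394, 387 and 394 in ALDHbr cells (log2 fold change 0.18 ± 0.041 (SE), adjusted p = 0.00304) and from 306, 316 and 313 to 341, 347 and 347 in ALDHneg cells (log2 fold change 0.14 ± 0.041 (SE), adjusted p = 0.0137). The MYC calls were lost with all 24 libraries in the fit (adjusted p = 0.365 and 0.472), and that in ALDHneg cells also with scaling by library size alone (0.08, adjusted p = 0.129). LEF1, with no count, gave no comparison.

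Over both directions, 6 of the 9 genes tested were called in SW620 ALDHbr cells, 4 higher and 2 lower, against 21.4% and 21.9% of 13953 genes. In ALDHneg cells 7 of 9 were called, 4 higher and 3 lower, against 22.3% and 22.7%. Called genes of the whole table were split nearly evenly between the directions, and the members were called in both directions too. The median log2 fold change of the 9 genes was 0.16 in ALDHbr and 0.08 in ALDHneg cells, and that of all genes tested -0.0070 and -0.0076.

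**Figure D2:**
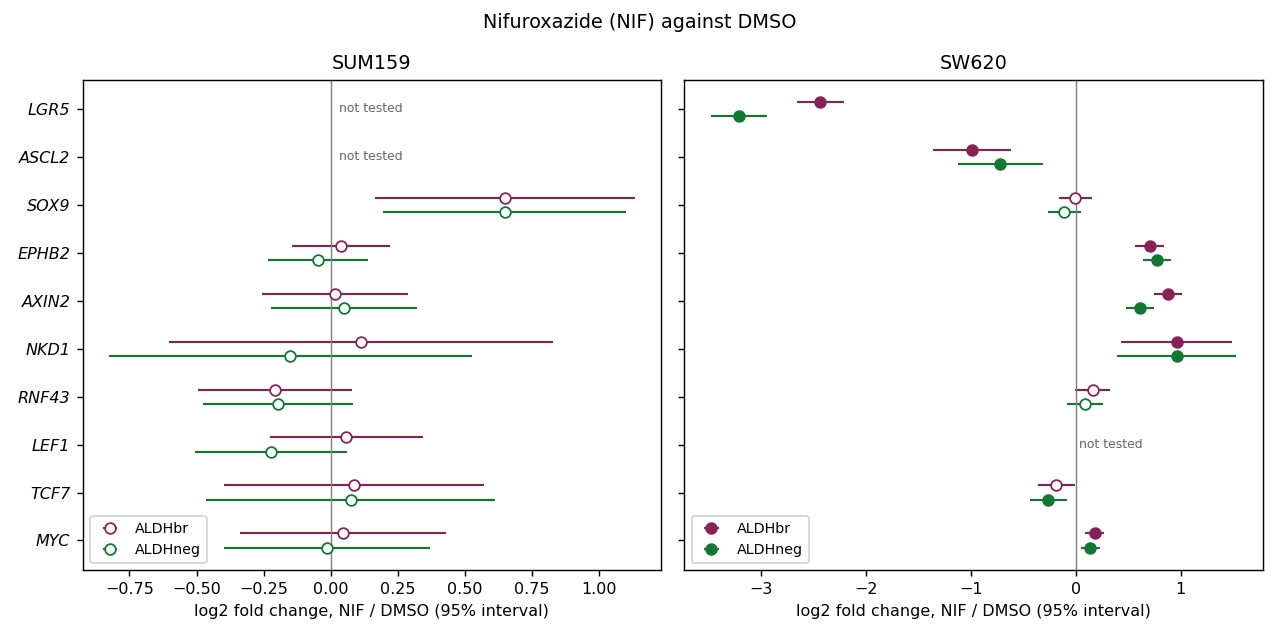
Log2 fold change of the 10 genes under NIF against DMSO in SUM159 (left) and SW620 (right, on a wider axis), with 95% intervals from the fitted model, ALDHbr cells in purple and ALDHneg cells in green. Filled points passed an adjusted p of 0.05; in SW620 the LGR5 points lie at -2.44 and -3.22, with AXIN2, EPHB2 and NKD1 on the other side of 0, and no point is filled in SUM159.

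Whether NIF acted differently on ALDHbr and ALDHneg cells of SW620 was tested as the difference of the fold changes. No member passed (0 of 9, edgeR, where 0.00717% of 13953 genes passed), 2 had an unadjusted p under 0.05, and DESeq2 called 1 of 9. The difference for LGR5, whose log2 fold change was -2.44 in ALDHbr and -3.22 in ALDHneg cells, was 0.78 ± 0.16 (SE), with an unadjusted p of 2.58e-04 and an adjusted p of 0.199. DESeq2 called it (adjusted p = 0.0285), as did edgeR without ALDHbr replicate 2 under DMSO (adjusted p = 0.046). AXIN2 was the other, with a difference of 0.27 ± 0.086 and an adjusted p of 0.673. For the other 7 genes the difference lay between -0.27 and 0.10.

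In SUM159 none of the 8 genes tested was called under NIF in ALDHbr cells (edgeR, where 0.936% of 14953 genes were called higher and 2.23% lower) or in ALDHneg cells (1.10% and 2.20%). At an unadjusted p under 0.05 there was 1 in each population, SOX9 in both, and DESeq2 called 0 in ALDHbr and 1 in ALDHneg cells. SOX9 had 7.29, 5.05 and 4.15 CPM in ALDHbr cells under DMSO and 8.82, 8.85 and 8.21 under NIF, and in ALDHneg cells 13.2, 10.2 and 6.58 under DMSO and 18.1, 14.1 and 14.6 under NIF. All libraries under NIF lay above those under DMSO in both populations, at log2 fold changes of 0.65 ± 0.23 (adjusted p = 0.145) and 0.65 ± 0.21 (adjusted p = 0.121). SUM159 libraries of the same number belong together, and in a fit with that number as a replicate block SOX9 was called higher under NIF in both, at 0.67 (adjusted p = 0.0023) in ALDHbr and 0.67 (adjusted p = 8.01e-04) in ALDHneg cells. Without the ALDHbr library under DMSO that held the traces, the unblocked value in ALDHbr cells was 0.47 (adjusted p = 0.392). That library had the lowest SOX9 value of its group, 4.15 CPM, and the traces, put at 0.480 CPM for SOX9, would add to this value.

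The other 7 genes were near their DMSO levels in SUM159, with log2 fold changes of -0.21 (RNF43) to 0.11 (NKD1) in ALDHbr cells and -0.22 (LEF1) to 0.074 (TCF7) in ALDHneg cells. The 95% interval of AXIN2 was -0.26 to 0.29 in ALDHbr and -0.22 to 0.32 in ALDHneg cells, and that of EPHB2 -0.15 to 0.22 and -0.23 to 0.14. Those of NKD1, on 13 to 43 counts a library, were wider, -0.60 to 0.83 and -0.83 to 0.52. MYC, with 580.3, 534 and 419 CPM under DMSO and 549, 548 and 489.6 under NIF in ALDHbr cells, overlapped between the groups. LGR5 and ASCL2 could not be tested, since their counts in SUM159 were 0 to 5. The response was not called different between ALDHbr and ALDHneg cells for any of the 8 genes by edgeR (0% of all genes were called, 0 of the 8 had an unadjusted p under 0.05, and DESeq2 called 0).

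The difference between the lines in the response to NIF was tested directly, as the SW620 fold change less that of SUM159, for the 7 genes with counts in both lines. In ALDHbr cells AXIN2 (0.86 ± 0.13, adjusted p = 2.03e-05) and EPHB2 (0.66 ± 0.12, adjusted p = 1.61e-04) responded more strongly upward in SW620, and SOX9 less (-0.66 ± 0.24, adjusted p = 0.0475), where 12.4% of 16271 genes were called higher and 10.7% lower. In ALDHneg cells the same 3 genes passed, AXIN2 at 0.56 ± 0.12 (adjusted p = 0.00168), EPHB2 at 0.83 ± 0.11 (adjusted p = 7.33e-06) and SOX9 at -0.76 ± 0.22 (adjusted p = 0.0144), against 11.9% and 10.5% of all genes. The SOX9 call was kept in 8 of 19 alternatives in ALDHbr cells and in 17 of 19 in ALDHneg cells. Without SUM159 ALDHbr replicate 3 under DMSO, the library with the traces, the SOX9 difference in ALDHbr cells was -0.48 (adjusted p = 0.189). AXIN2 (0.93) and EPHB2 (0.68) were called without it too. SOX9 was lowest of its group in that library, at 4.15 CPM, and the traces would add to this value. LGR5 was called lower in ALDHneg cells (-2.95 ± 0.84, adjusted p = 0.0241), but the SUM159 side of that difference was 0 to 5 counts a library, and without SUM159 ALDHneg replicate 1 under NIF or under DMSO the adjusted p was 0.236 or 0.057. NKD1 was at 0.85 ± 0.41 (adjusted p = 0.153) and 1.11 ± 0.41 (adjusted p = 0.05, not called, and called in 7 of 19 alternatives, among them the replicate block at 0.0387).

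ALDHbr cells were also compared with ALDHneg cells of the same line. In SW620 under DMSO the stem cell genes LGR5 and ASCL2 were higher in ALDHbr cells, and EPHB2 and AXIN2 lower. LGR5 was 19.9 ± 1.54 CPM in ALDHbr and 13.5 ± 0.475 CPM in ALDHneg cells (log2 fold change 0.56 ± 0.088 (SE), adjusted p = 0.00114), and ASCL2 8.69 ± 1.28 CPM and 4.39 ± 0.818 CPM (log2 fold change 0.98 ± 0.17 (SE), adjusted p = 0.00218). AXIN2 was 71.5 ± 4.19 CPM and 92.5 ± 1.69 CPM (log2 fold change -0.37 ± 0.061 (SE), adjusted p = 0.00153), and EPHB2 12.6 ± 0.644 CPM and 16.6 ± 0.0302 CPM (log2 fold change -0.39 ± 0.065 (SE), adjusted p = 0.00152). No library overlapped between the populations for these 4 genes. The share of all genes without such overlap was not counted, here or for the other statements on overlap. MYC was higher by a small step (log2 fold change 0.15 ± 0.041 (SE), adjusted p = 0.0371), and it was called in 4 of 14 alternatives and in 1 of the 6 that left out a library, ALDHbr replicate 2. In all, 3 of 9 genes were called higher and 2 lower, where 5.45% and 5.86% of 13953 genes were. A single library had a large part in these counts: without ALDHbr replicate 2 under DMSO, 8 of 9 genes were called, SOX9 (-0.22, adjusted p = 0.00779), RNF43 (-0.31, adjusted p = 0.00427) and TCF7 (-0.36, adjusted p = 0.0016) being lower in ALDHbr cells as well, and the number of genes called in the whole table rose from 1577 to 5487.

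Under NIF the same comparison in SW620 gave 3 genes higher and 1 lower, against 3.41% and 3.26% of all genes. LGR5 was again higher in ALDHbr cells, 3.67 ± 0.0116 CPM against 1.46 ± 0.294 CPM (log2 fold change 1.34 ± 0.14 (SE), adjusted p = 3.51e-05), so that its order between the populations was kept at a lower level. EPHB2 was lower (log2 fold change -0.46 ± 0.062 (SE), adjusted p = 3.80e-04). ASCL2 (log2 fold change 0.71 ± 0.19 (SE), adjusted p = 0.0406) and MYC (log2 fold change 0.19 ± 0.041 (SE), adjusted p = 0.0139) were higher. The ASCL2 call was lost when any of the 6 libraries other than ALDHbr replicate 1 was left out, and the MYC call without ALDHbr replicate 2 or ALDHneg replicate 1 or 3, so that 2 of 9 genes were then called. AXIN2, with 143, 130.1 and 123 CPM in ALDHbr and 143, 139 and 144 in ALDHneg cells, was not called (log2 fold change -0.10 ± 0.060 (SE), adjusted p = 0.34).

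In SUM159 other members marked the populations. Under DMSO TCF7 had 3.01, 2.85 and 2.38 CPM in ALDHbr and 1.16, 1.19 and 1.59 in ALDHneg cells (log2 fold change 1.05 ± 0.24 (SE), adjusted p = 0.00515), and EPHB2 had 105, 125 and 112 and 88.9, 90.2 and 76.5 (log2 fold change 0.42 ± 0.086 (SE), adjusted p = 0.00248). Both were higher in ALDHbr cells without overlap. SOX9 was lower in ALDHbr cells (log2 fold change -0.86 ± 0.23 (SE), adjusted p = 0.012), although its highest ALDHbr library, at 7.29 CPM, lay above its lowest ALDHneg library, at 6.58. Those libraries carry different replicate numbers. Within each replicate number SOX9 was lower in ALDHbr cells, at 7.29 against 13.2, 5.05 against 10.2 and 4.15 against 6.58 CPM. Without the ALDHbr library with the traces SOX9 was at -0.69 (adjusted p = 0.0596), and without ALDHneg replicate 1 at -0.60 (adjusted p = 0.0738), while TCF7 and EPHB2, at 1.15 and 0.43 without the library with the traces, were called in all 14 alternatives. These were 2 higher and 1 lower of 8 genes tested, against 10.7% and 12.3% of 14953 genes. With the replicate block RNF43 (-0.34, adjusted p = 0.0332) and LEF1 (-0.21, adjusted p = 0.0481) were called lower as well.

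Under NIF the 3 genes were called again in SUM159, 2 higher and 1 lower, against 9.95% and 12.0% of all genes: TCF7 at 1.06 ± 0.24 (adjusted p = 0.00458), EPHB2 at 0.51 ± 0.086 (adjusted p = 5.91e-04) and SOX9 at -0.86 ± 0.21 (adjusted p = 0.00899). SOX9 did not overlap between the populations here, and its call was lost without ALDHneg replicate 1 under NIF (adjusted p = 0.0506). With the replicate block RNF43 was called as well (-0.35, adjusted p = 0.0312). EPHB2 was thus higher in ALDHbr cells of SUM159 and lower in ALDHbr cells of SW620, under DMSO and under NIF, and the difference between the lines in this contrast was not tested. AXIN2 was not called between the SUM159 populations, at -0.021 ± 0.13 under DMSO (95% interval -0.29 to 0.25) and -0.054 ± 0.13 under NIF (-0.32 to 0.22). The comparisons with NIF and between populations share libraries and are not independent of each other.

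**Figure D3:**
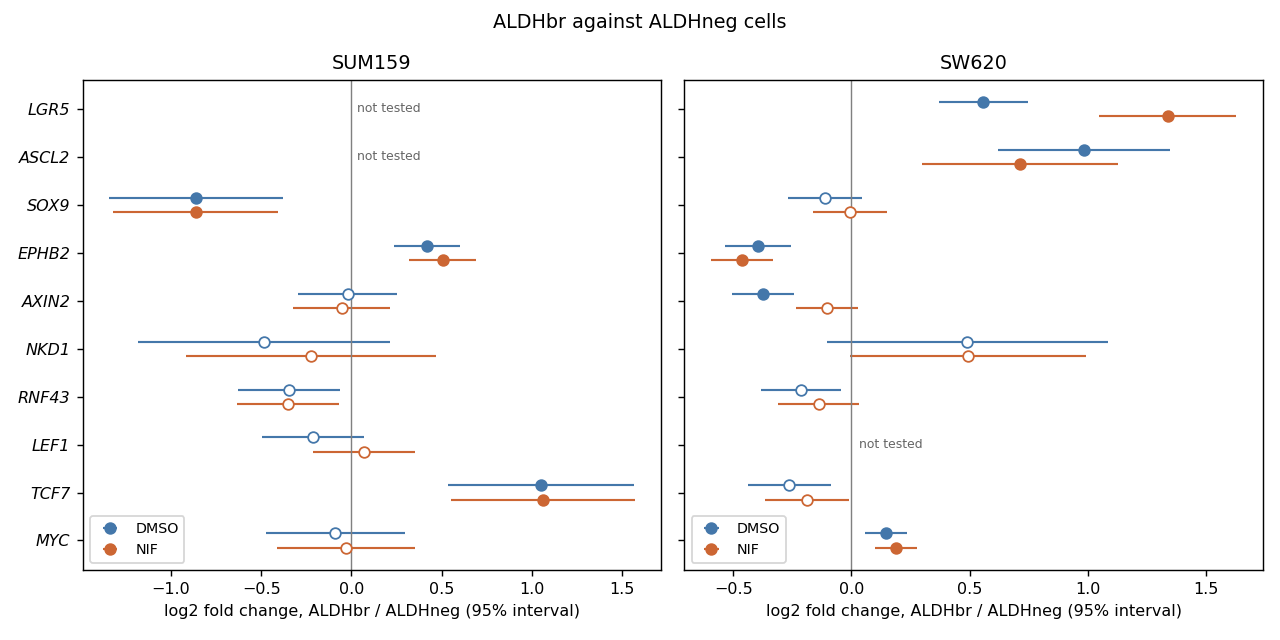
Log2 fold change of the 10 genes in ALDHbr against ALDHneg cells of SUM159 (left) and SW620 (right), under DMSO (blue) and NIF (orange), with 95% intervals from the fitted model and filled points for an adjusted p under 0.05. TCF7 and EPHB2 lie above 0 in SUM159, LGR5 and ASCL2 above 0 and EPHB2 below 0 in SW620.

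The rest of the pathway was read from 118 other genes in 8 lists by role. In SW620 ALDHbr cells 82 of them were tested, and 24 were called higher and 21 lower under NIF, where 21.4% and 21.9% of all genes were. In ALDHneg cells 25 were higher and 23 lower, where 22.3% and 22.7% of all genes were. Their median log2 fold change was -0.04 in both. Of the 15 other intestinal stem cell genes tested 3 were higher and 8 lower in ALDHbr cells (median -0.39) and 2 higher and 9 lower in ALDHneg cells (median -0.56), beside the same shares of all genes. SLC12A2, an ion cotransporter, went from 305, 404 and 301 CPM to 143, 133 and 114 in ALDHbr cells (log2 fold change -1.37 ± 0.10 (SE), adjusted p = 2.01e-07) and fell by 1.48 on the log2 scale in ALDHneg cells (adjusted p = 7.95e-08). The urea transporter SLC14A1 fell in both (-1.73 ± 0.18 and -1.72 ± 0.15). TNFRSF21, a death receptor (0.71 ± 0.046 and 0.60 ± 0.046), and PHLDA1 (0.53 ± 0.048 and 0.47 ± 0.047) rose in both populations.

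The R-spondin receptors related to LGR5 did not move together. LGR4, the family member with the wider expression, went from 109, 137 and 105 CPM to 84.8, 77.9 and 71.0 in SW620 ALDHbr cells (log2 fold change -0.59 ± 0.093 (SE), adjusted p = 1.68e-04) and from 99.7, 105 and 108 to 60.3, 54.0 and 59.1 in ALDHneg cells (log2 fold change -0.86 ± 0.094 (SE), adjusted p = 4.83e-06), and fell in both. LGR6 rose from 2.55, 3.01 and 2.52 CPM to 4.33, 4.53 and 5.54 (log2 fold change 0.83 ± 0.12 (SE), adjusted p = 7.49e-05) and from 4.21, 4.28 and 4.45 to 6.73, 6.22 and 6.09 (log2 fold change 0.55 ± 0.11 (SE), adjusted p = 9.10e-04). Of the 14 receptors and co-receptors tested, 2 rose and 4 fell in ALDHbr cells and 2 rose and 5 fell in ALDHneg cells, beside the shares of all genes (21.4% to 22.3% higher and 21.9% to 22.7% lower). The Frizzled receptor FZD7 rose (0.32 ± 0.065 and 0.23 ± 0.064), and the receptor kinase ROR1, of the branch without β-catenin, fell (-1.06 ± 0.14 and -1.34 ± 0.14).

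Of the destruction complex and its partners 7 of 13 genes rose and 1 fell in SW620 ALDHbr cells, beside 21.4% higher and 21.9% lower of all genes. By edgeR 7 rose and none fell in ALDHneg cells (9 higher and 1 lower at an unadjusted p under 0.05), beside 22.3% higher and 22.7% lower of all genes there. The partners in this list are DVL1, DVL2, DVL3, TNKS and TNKS2, and DVL1 and DVL3 were among the 7 that rose in ALDHbr cells. DVL1, a Dishevelled that passes the receptor's signal on, had 199.9, 194 and 198 CPM under DMSO and 321, 312 and 335 under NIF in ALDHbr cells (log2 fold change 0.71 ± 0.044 (SE), adjusted p = 2.30e-08), and 0.76 ± 0.044 on the log2 scale in ALDHneg cells. The kinases GSK3B (0.37 ± 0.10 in ALDHbr cells) and CSNK1A1 (0.41 ± 0.044 in ALDHneg cells) rose, and DVL2 fell in ALDHbr cells (-0.18 ± 0.068). APC was not called, at -0.013 ± 0.18 and -0.070 ± 0.17. β-catenin RNA (CTNNB1) was at 0.093 ± 0.041 (adjusted p = 0.0806) in ALDHbr cells and rose slightly in ALDHneg cells (log2 fold change 0.10 ± 0.041 (SE), adjusted p = 0.0488).

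Of the 11 nuclear effectors tested, 3 rose and 2 fell in each population of SW620, beside the same shares of all genes. The β-catenin co-activator BCL9L rose (0.68 ± 0.11 in ALDHbr and 0.71 ± 0.11 in ALDHneg cells), as did CTNNBIP1, an inhibitor of β-catenin's binding to TCF, in ALDHbr cells (0.40 ± 0.11) and the co-repressor TLE3 in ALDHneg cells (0.32 ± 0.067). The co-repressor TLE1 (-0.33 ± 0.053 and -0.20 ± 0.053) and PYGO2 (-0.25 ± 0.060 and -0.17 ± 0.060) fell. Among 6 inhibitors tested 1 rose and 2 fell in each population: the secreted DKK1 rose (0.64 ± 0.063 and 0.33 ± 0.063), while ZNRF3, the partner of RNF43 (-0.29 ± 0.10 and -0.39 ± 0.10), and KREMEN1 (-0.35 ± 0.092 and -0.47 ± 0.091) fell.

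The other Wnt targets, like the members, were called in both directions. In SW620 ALDHbr cells 6 of 15 were higher and 3 lower, where 21.4% and 21.9% of all genes were. In ALDHneg cells 7 were higher and 3 lower, where 22.3% and 22.7% of all genes were. PLAUR, the urokinase receptor, went from 45.6, 37.5 and 46.7 CPM to 130.0, 134 and 155 in ALDHbr cells (log2 fold change 1.69 ± 0.085 (SE), adjusted p = 2.99e-09) and rose by 1.79 ± 0.085 in ALDHneg cells, and FOSL1, an AP-1 subunit, rose by 1.13 ± 0.061 and 1.26 ± 0.061. BIRC5, the mitotic protein survivin, went from 177, 148 and 175 CPM to 89.7, 95.5 and 101 (log2 fold change -0.81 ± 0.071 (SE), adjusted p = 6.73e-07) and was at -0.87 ± 0.071 in ALDHneg cells, and the surface glycoprotein CD44 was at -0.47 ± 0.072 and -0.57 ± 0.072. Both fell in both populations. Among the ligands, WNT11 fell (-0.42 ± 0.084 and -0.77 ± 0.085) and WNT7B rose (0.38 ± 0.069 and 0.39 ± 0.068), and WNT10A fell in ALDHneg cells (-0.32 ± 0.071). PORCN, the enzyme that attaches the lipid every Wnt ligand needs, rose from 3.40, 3.17 and 3.82 CPM to 7.49, 6.96 and 8.33 in ALDHbr cells (log2 fold change 1.13 ± 0.10 (SE), adjusted p = 9.05e-07) and by 1.24 ± 0.10 in ALDHneg cells.

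**Figure D4:**
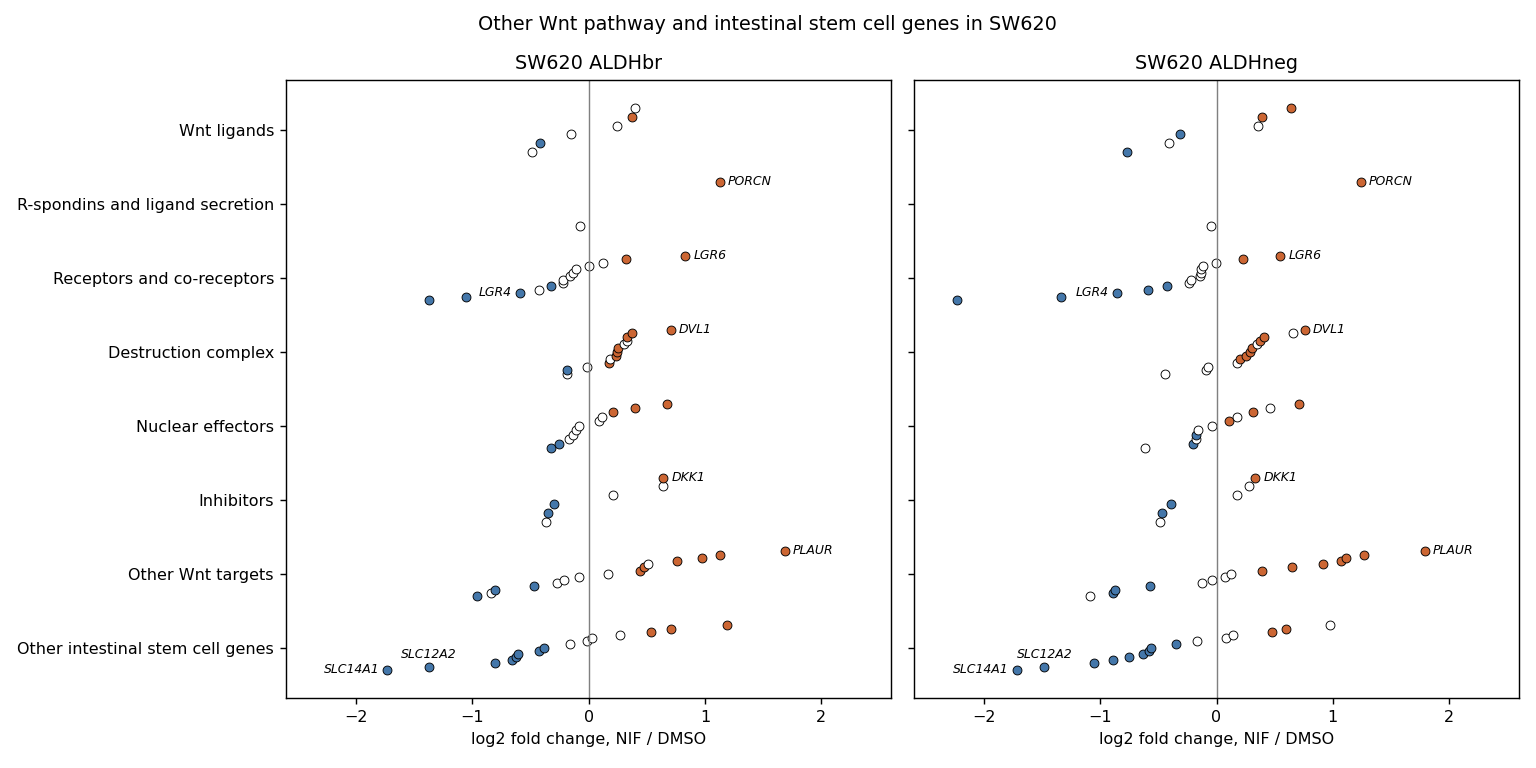
Log2 fold change under NIF of the other Wnt pathway and intestinal stem cell genes tested in SW620, by list, in ALDHbr (left) and ALDHneg cells (right). Orange points were called higher, blue lower and white not called. Among the stem cell genes SLC14A1 and SLC12A2 lie farthest to the left, and LGR4 and LGR6 lie on opposite sides of 0. In the list of the destruction complex and its partners, which also holds the Dishevelled genes, 7 of the 13 genes are orange in each panel.

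In SUM159 fewer of these genes were called. Of 84 tested, 5 were lower in ALDHbr and 6 in ALDHneg cells, and none was called higher by edgeR (5 and 4 had an unadjusted p under 0.05, and DESeq2 called 3 and 1). Over all genes 2.23% were called lower and 0.936% higher in ALDHbr cells, and 2.20% and 1.10% in ALDHneg cells. With the replicate block, which pairs these libraries, 5 were higher and 13 lower in ALDHbr cells (5.77% and 7.56% of all genes) and 4 and 15 in ALDHneg cells (6.1% and 7.08%). Ligands and their secretion were among the calls. WNT5A, a ligand of the branch without β-catenin, went from 7.09, 7.16 and 6.02 CPM to 3.45, 3.77 and 2.35 in ALDHbr cells (log2 fold change -1.09 ± 0.17 (SE), adjusted p = 0.0018) and from 31.6, 30.6 and 27.0 to 18.0, 18.5 and 13.6 in ALDHneg cells (log2 fold change -0.83 ± 0.14 (SE), adjusted p = 0.00367). WNT7B fell too (-1.02 ± 0.13 and -1.35 ± 0.13), as did PORCN (-0.34 ± 0.084 and -0.52 ± 0.084). WNT7B and PORCN thus fell in SUM159 and rose in SW620, and the difference between the lines passed for both, at 1.40 ± 0.14 (adjusted p = 5.84e-08) and 1.46 ± 0.14 (adjusted p = 2.60e-08) in ALDHbr cells, and at 1.34 and 1.50 without the SUM159 library with the traces. The others were LGR4 (-0.45 ± 0.12, adjusted p = 0.0498) and TLE1 (-0.47 ± 0.10) in ALDHbr cells, and FZD2 (-0.60 ± 0.15), NKD2 (-0.78 ± 0.17) and KREMEN2 (-0.63 ± 0.13) in ALDHneg cells. In ALDHbr cells the calls of LGR4 and PORCN were lost when any 1 of the 6 libraries compared was left out, that of LGR4 also under either other scaling and a minimum of 10 counts in every library, and that of TLE1 without replicate 3 under NIF or 1 or 2 under DMSO. In ALDHneg cells the call of FZD2 was lost without any of the libraries but replicate 2 under DMSO, with library-size scaling and with the compared groups alone. That of NKD2 was lost without replicate 1 or 3 under NIF or 1 or 2 under DMSO, and KREMEN2 was not called without replicate 1 or 3 under NIF or 1 under DMSO. With the replicate block these genes were called too. APC (-0.14 ± 0.13 and 0.054 ± 0.13) and CTNNB1 (0.19 ± 0.062 and 0.12 ± 0.062) were not called. The replicate block called CTNNB1 higher in ALDHbr cells (0.19, adjusted p = 0.00893) and LGR4 lower in ALDHneg cells (-0.29, adjusted p = 0.031).

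Markers of cell types and states moved with NIF in SW620 as well. Of the 10 colon epithelial markers 2 rose and 5 fell in ALDHbr cells and 2 rose and 4 fell in ALDHneg cells. Over all genes 21.4% rose and 21.9% fell in ALDHbr cells, and 22.3% and 22.7% in ALDHneg cells. The intestinal factor CDX2 (-1.25 ± 0.24 and -1.37 ± 0.33) and the surface antigen GPA33 (-1.60 ± 0.26 and -2.22 ± 0.31) fell, both at a low level (mean log2 CPM -0.194 and 0.525). In ALDHbr cells the more abundant EPCAM (-0.26), KRT8 (-0.23) and KRT18 (-0.35) fell by less. LGALS4 rose there (0.34), and CDH1, VIL1 and CDH17 were not called. The summed level of the 10 markers was 14000 to 16900 CPM under DMSO and 13000 to 14900 under NIF in ALDHbr cells and 14600 to 15500 and 13000 to 13400 CPM in ALDHneg cells. The 10 markers of differentiated colon cells summed to 543 to 579 CPM in ALDHbr cells under DMSO and 817 to 821 under NIF, and to 528 to 549 and 682 to 715 CPM in ALDHneg cells. Keratin 20 (KRT20) made up most of these sums, with log2 fold changes of 0.69 ± 0.045 and 0.55 ± 0.045. Of the 6 markers tested 2 rose and 3 fell in ALDHbr cells and 2 rose and 2 fell in ALDHneg cells, and the enterocyte genes CA1 and SLC26A3 had no count in any SW620 library. The 10 mesenchymal markers summed to 9.47 to 10.7 CPM under DMSO and 26.2 to 29.2 under NIF in ALDHbr cells and to 16.6 to 18.0 and 36.3 to 39.0 CPM in ALDHneg cells, mostly the receptor kinase AXL (1.75 ± 0.093 and 1.22 ± 0.085). Of these 10, 5 were tested, of which 2 rose and 1 fell in ALDHbr cells and 3 rose and 1 fell in ALDHneg cells, the one that fell being fibronectin (FN1, -1.76 ± 0.43 and -0.99 ± 0.23). The 6 immune and endothelial markers summed to 12.6 to 15.0 and 28.4 to 31.2 CPM in ALDHbr cells and to 11.8 to 13.4 and 30.1 to 33.5 CPM in ALDHneg cells, nearly all of it CD68, a lysosomal protein. ALDH1A1 fell in both populations (-0.46 ± 0.047 and -0.71 ± 0.047). The part of these shifts in the changes of LGR5, ASCL2, AXIN2 and EPHB2 was not tested.

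The sorted populations of SUM159 differed in many of the other pathway genes under DMSO, with 24 of 84 higher and 19 lower in ALDHbr cells. Over all genes 10.7% and 12.3% were. Without the library with the traces 21 were higher and 13 lower, where 7.63% and 9.12% of all genes were. Among the 8 inhibitors tested 5 were lower and 2 higher. NKD2, a relative of NKD1, had 2.72, 2.24 and 1.57 CPM in ALDHbr and 20.9, 21.7 and 15.8 in ALDHneg cells (log2 fold change -3.17 ± 0.20 (SE), adjusted p = 4.04e-08, and -2.96 without that library), and NOTUM, the secreted enzyme that strips the lipid from Wnt ligands, was lower too (-2.89 ± 0.37), while KREMEN1 (1.16 ± 0.15) and ZNRF3 (0.49 ± 0.079) were higher. Of the 7 ligands 4 were lower and 1 higher, led by WNT5A with 7.09, 7.16 and 6.02 CPM in ALDHbr and 31.6, 30.6 and 27.0 in ALDHneg cells (log2 fold change -2.14 ± 0.14 (SE), adjusted p = 8.14e-08, and -2.06 without that library), and WNT9A was the higher one (0.97 ± 0.18). The co-repressor TLE4 was lower (-1.40 ± 0.15). The other stem cell genes went the other way, 7 higher and 1 lower of 13, among them the RNA-binding protein MEX3A (0.50 ± 0.080) and SLC14A1 (0.77 ± 0.10), with TNFRSF21 lower (-0.84 ± 0.19).

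In SW620 under DMSO 13 of 82 were higher and 10 lower in ALDHbr cells, where 5.45% and 5.86% of all genes were. Without ALDHbr replicate 2, 15 of 84 were higher and 27 lower, where 18.6% and 20.2% of all genes were. Of the other Wnt targets 6 of 15 were higher and 1 lower, with 0.71 ± 0.072 for CD44, 0.70 ± 0.10 for the transcription factor SP5 and -0.35 ± 0.045 for cyclin D1 (CCND1). The other stem cell genes were split, 4 higher and 3 lower of 15, with PROM1, which encodes the antigen CD133 (0.43 ± 0.061), and LRIG1, a brake on growth factor receptors (0.36 ± 0.070), on the higher side and SLC14A1 (-0.89 ± 0.13) and PHLDA1 (-0.39 ± 0.048) on the lower. LGR6 (-0.68 ± 0.12), DKK1 (-0.55 ± 0.063) and the ligands WNT10A (-0.67 ± 0.072) and WNT7B (-0.33 ± 0.069) were lower in ALDHbr cells. LGR4 (0.17 ± 0.093), APC (-0.21 ± 0.17) and CTNNB1 (-0.069 ± 0.041) were not called.

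Between the lines, in ALDHbr cells under DMSO, 40 of 92 of these genes were higher and 39 lower in SW620, near the shares of all genes (39.6% and 41.7%). Without the SUM159 library with the traces 40 of 93 were higher and 42 lower, where 37.5% and 40.7% of all genes were. LGR4 was then at 3.11, AXIN1 at 0.98, TNFRSF21 at 4.85 and PORCN at -3.28. LGR4 was higher in SW620 (log2 fold change 3.06 ± 0.10 (SE), adjusted p = 2.67e-18), as were AXIN1 (0.99 ± 0.063), DKK1 (1.54 ± 0.10) and TNFRSF21 (4.99 ± 0.14). PORCN (log2 fold change -3.24 ± 0.10 (SE), adjusted p = 1.37e-19), the Wnt carrier WLS (-0.81 ± 0.053), the receptor FZD1 (-2.53 ± 0.13), the co-repressor TLE2 (-4.47 ± 0.25) and CTNNB1 (-0.70 ± 0.052) were lower. APC RNA was not called (0.19 ± 0.17, 95% interval -0.16 to 0.53).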

How the data were processed

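Total RNA of sorted SUM159 and SW620 cells was sequenced with a stranded total RNA kit in 24 libraries, described in the study as 3 independent experiments for each of 8 groups. The authors deposited raw counts per gene, not normalised, for 28307 genes. The submitters' processing notes name FastQC, STAR and GRCh38, and the counting program and the annotation are not given in the sources used here, so reads shared with overlapping genes or gene copies may be split in ways that cannot be seen. Every column of the count table belonged to these samples (0 columns of other samples), and 4579 genes had no count. The final concentration of NIF is not in the labels.

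Counts were tested with the quasi-likelihood test of edgeR 4.0.16 (R 4.3.3), with genes kept by filterByExpr, TMM scaling and Benjamini-Hochberg adjustment over all genes tested, at an adjusted p of 0.05. Comparisons within a line were fitted on its 12 libraries as 4 groups, and comparisons between lines on all 24. Standard errors and 95% intervals come from the fitted model. CPM were scaled by TMM over all 24 libraries, and log2 CPM used a prior count of 2. The steps were tested on simulated data. The p-values measure the spread between 3 experiments with 1 line each, and floors of 3 counts cover counting error only. Libraries of a group differed by more than sampling noise in all 24 pairs within groups (chi-square per gene 1.97 to 46.1). This spread cannot tell separate experiments from repeated preparations. Each library was counted as a replicate on the study's description as independent experiments.

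Replicate numbers are shared between groups in the labels. Deviations of same-numbered SUM159 libraries from their group means correlated over 0.1 in 18 of 18 pairs (0.125 to 0.451), so these numbers were taken as pairing, from the data and the description as separate experiments. In SW620 1 of 18 pairs did (-0.278 to 0.214), and its numbers were not. A fit with the replicate number as a block, DESeq2 1.42.0, other scalings, other filters on low counts, other sets of libraries in the fit, and each library left out were the alternatives.

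The 10 genes and all lists were chosen with earlier results of these data known. Other pathway genes were named as up to 2 called genes in each direction per list and comparison where the mean log2 CPM was 1 or more, largest changes first, beside APC, CTNNB1, LGR4 and ALDH1A1. Not every gene chosen this way is reported here. KRT20, AXL, CD68, CDX2, GPA33 and FN1 and the 15 genes behind the traces in 1 library were chosen after their values were seen. Gene positions (10 of 10 matched by gene number) and promoter windows are from RefSeq, GRCh38.p14.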

Additional observations from a re-analysis of the deposited data

Results flagged for a closer look

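The response to NIF differed between SW620 and SUM159 at an adjusted p under 0.05 (edgeR, a test of the difference itself) for 3 of the 10 genes in ALDHbr cells and 4 in ALDHneg cells. Over all 16271 genes 12.4% were called higher and 10.7% lower in ALDHbr cells, and 11.9% and 10.5% in ALDHneg cells. ASCL2 had no count in SUM159 and LEF1 none in SW620, so neither gave a difference. As the SW620 less the SUM159 log2 fold change, the differences were 0.66 for EPHB2, 0.86 for AXIN2 and -0.66 for SOX9 in ALDHbr cells, and 0.83 for EPHB2, 0.56 for AXIN2, -0.76 for SOX9 and -2.95 for LGR5 in ALDHneg cells. The LGR5 value has 0 to 5 counts a library on the SUM159 side.

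Of the 92 other pathway genes tested, the same difference was called higher for 18 and lower for 14 in ALDHbr cells, and for 18 and 16 in ALDHneg cells. Those chosen by the naming rule are given here. In ALDHbr cells it was called for WNT7B (1.40) and PORCN (1.46), the receptors FZD2 (-1.07), ROR1 (-0.77) and FZD7 (0.54), GSK3B (0.34), DVL1 (0.58), CTNNBIP1 (0.53), BCL9L (0.80) and ZNRF3 (-0.40). It was also called for the targets BIRC5 (-0.70), CD44 (-0.46), PLAUR (1.62) and MMP7 (2.66), and for the stem cell genes SLC14A1 (-1.88), SLC12A2 (-1.41), TNFRSF21 (0.77) and PHLDA1 (1.06). Without the SUM159 ALDHbr library under DMSO that held traces of genes otherwise read in SW620, the MMP7 value was -1.13 (adjusted p = 0.568). Without it the calls of GSK3B (0.31, adjusted p = 0.116), CTNNBIP1 (0.43, adjusted p = 0.111) and ZNRF3 (-0.38, adjusted p = 0.0679) were lost as well.

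In ALDHneg cells it was called for WNT7B (1.74), PORCN (1.77), FZD2 (-1.62), ROR1 (-1.24), FZD7 (0.58), BTRC (0.44), DVL1 (0.65), TLE3 (0.45), BCL9L (0.80), ZNRF3 (-0.50) and NKD2 (1.07). The targets and stem cell genes called there were BIRC5 (-0.76), CD44 (-0.58), FOSL1 (1.50), PLAUR (1.62), SLC14A1 (-1.90), SLC12A2 (-1.61), TNFRSF21 (0.78) and PHLDA1 (0.91). Between ALDHbr and ALDHneg cells the difference in the response to NIF was called by edgeR for 0 of the 9 genes tested in SW620 and 0 of the 8 tested in SUM159, and for LGR5 in SW620 in 2 of 19 alternatives.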

How the results depend on the processing

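Of 1650 values of the 10 genes under the alternatives, 1566 kept their side of the threshold, 48 lost a call, 36 gained one and 0 reversed while called. Among the 1566, 72 changed sign while past the threshold in neither fit. In SUM159 the count of these genes called under NIF went from 0 to 1 in ALDHbr cells (no filter on low counts, all 24 libraries, replicate block) and from 0 to 1 in ALDHneg cells (the same settings and DESeq2). Between the SUM159 populations it went from 3 to 5 with all 24 libraries, under DMSO and under NIF, and from 3 to 5 (DMSO) and 4 (NIF) with the replicate block. In SW620 the difference of the responses went from 0 to 1 with DESeq2, and the populations under NIF from 4 to 2 with all 24 libraries. The replicate block gave 6, 7, 4 and 3 in SW620 (NIF in ALDHbr and ALDHneg cells, populations under DMSO and NIF), where samples share only a number, and 10, 3 and 5 between the lines (DMSO, and the response in ALDHbr and ALDHneg cells). It raised all genes called under NIF in SUM159 from 473 to 1994 in ALDHbr and from 493 to 1970 in ALDHneg cells.

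With each library left out in turn, the count was 2 to 4 and 2 to 3 between the SUM159 populations (DMSO, NIF), 6 to 7 and 6 to 7 under NIF in SW620 ALDHbr and ALDHneg cells, 4 to 8 and 2 to 4 between the SW620 populations (DMSO, NIF), 0 to 1 for the SW620 difference of responses, 10 between the lines, and 2 to 4 and 3 to 5 for the lines' responses (ALDHbr, ALDHneg). The 8 came without SW620 ALDHbr replicate 2 under DMSO, where all genes called went from 1577 to 5487, and the lowest there was 712, without ALDHbr replicate 1. All genes called were 222 to 322 and 192 to 584 under NIF in SUM159 ALDHbr and ALDHneg cells, and 494 to 996 between the SW620 populations under NIF (931 with all libraries). The MMP7 difference between the lines' responses in ALDHbr cells reversed to -1.13, with a range of -1.13 to 3.55, the lowest being without the SUM159 library that held the traces. Of 3574 values of other pathway genes 207 lost a call, 7 gained one and 1 reversed. The cause was not tested. Genes at 0 to 5 counts a library, LGR5 and ASCL2 in SUM159 and LEF1 in SW620, could not be followed at this depth.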

Other observations

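The traces in replicate 3 of SUM159 ALDHbr cells under DMSO were spread over the 15 genes. KRT20, a keratin of the colon epithelium, had 75 counts there and at most 1 in any other SUM159 library, GPX2, a glutathione peroxidase of the gut, had 90 and at most 1, the neurotensin receptor NTSR1 had 108 and at most 5, and E-cadherin (CDH1) had 68 and at most 6. In the other direction the 12 SW620 libraries held 5 to 48 counts in sum of the genes chosen by the same rule for SUM159, which is 0.00199% to 0.0158% of the SUM159 level.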
